A study of Mus musculus with 3 samples.

Results

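Crybb1 and Cryba4, which encode the lens proteins beta-B1-crystallin and beta-A4-crystallin, were followed through the myeloid cells of the mouse fetal brain. They are 2 of the 27998 genes in the count matrices. Both were chosen because earlier results of the same data placed them among the genes of the fetal microglial stage, so their levels are given as a description with no test. Kept were cells with 500 genes or more and no more than 10% of UMIs from mitochondrial genes (a UMI, or unique molecular identifier, marks 1 captured RNA molecule). They were sorted by marker genes into microglia (P2ry12 detected, Mrc1 at 0), border macrophages (Mrc1 and Pf4 detected) and monocytes (Ccr2 and Ly6c2 detected). Cells meeting more than 1 of these gates were left out of all classes.

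The study collected brains at E18.5 (embryonic day, counted from mating) from pregnant mice of 3 groups, enriched cells bearing CD11b, a surface integrin of myeloid cells, with magnetic beads, and sequenced 1 droplet library of 3′ transcript ends per group. The 3 libraries were Ncr1-cre with saline (saline library), Ncr1-cre with polyIC (poly(I:C) library) and Gzmb-cko with polyIC (Gzmb-cko library), the last with the genotype Ncr1-cre;gzmbf/f. Poly(I:C), a synthetic form of double-stranded RNA, is used to imitate infection with a virus. Ncr1-cre, which all 3 groups share, acts in natural killer cells and other innate lymphoid cells, and Gzmb is the gene of granzyme B, a protease of their granules. Microglia are not the cells in which this Cre is used, and no Gzmb-cko library with saline was analysed here. The sources used here do not give the dose or day of treatment, how many fetuses were pooled, or if a genotype is the dam's or the fetus's. With 1 library per group, no difference between libraries has a replicate check, and all intervals below are 95% intervals for counting error only.

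Crystallins are abundant, long-lived proteins that give the eye lens its transparency and refractive power, and in the lens their genes are driven by transcription factors that include large MAF proteins. Crybb1 RNA is also known in microglia, the resident macrophages of brain tissue, as one of the genes that marks them around birth, between an early embryonic stage and the adult stage. Border macrophages sit in the meninges, around vessels and in the choroid plexus, and monocytes are blood-borne relatives of both.

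The pair lies side by side on mouse chromosome 5 (build GRCm38). Crybb1 (ENSMUSG00000029343) occupies chr5:112255815-112269585 on the plus strand and Cryba4 (ENSMUSG00000066975) chr5:112246493-112252518 on the minus strand. They are read away from each other, with 3297 bases between their outermost 5′ ends. Each has 3 annotated transcripts, and the longest of each has 6 exons, of 882 bases for Crybb1 and 808 bases for Cryba4. The promoters are shown because the genes' RNA levels ran closely together over cell classes, a pattern on which both were chosen. Both sequences are RefSeq's for GRCm38.p6 and run 5′ to 3′ on the gene's own strand, from 250 bases before the transcript start to 50 bases after it. The Crybb1 window is chr5:112255570-112255869 (plus strand) and the Cryba4 window is chr5:112252469-112252768 (minus strand). Capitals mark each TGCTGA, the core of the MAF recognition element, and the TATA element.
Crybb1: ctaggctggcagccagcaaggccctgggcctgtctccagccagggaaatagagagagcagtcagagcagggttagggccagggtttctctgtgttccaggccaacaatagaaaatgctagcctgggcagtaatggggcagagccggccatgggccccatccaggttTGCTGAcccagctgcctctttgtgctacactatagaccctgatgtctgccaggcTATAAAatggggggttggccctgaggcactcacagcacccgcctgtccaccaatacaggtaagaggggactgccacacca
Cryba4: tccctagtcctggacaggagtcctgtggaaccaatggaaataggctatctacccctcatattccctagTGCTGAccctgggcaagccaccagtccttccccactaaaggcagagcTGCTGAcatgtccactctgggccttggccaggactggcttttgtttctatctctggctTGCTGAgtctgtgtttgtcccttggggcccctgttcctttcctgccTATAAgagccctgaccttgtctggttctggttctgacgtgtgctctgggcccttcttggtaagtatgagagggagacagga
Crybb1 held 1 TGCTGA, at position -84 from the start, and Cryba4 held 3, at -182, -135 and -77. TGCTGA was searched on both strands and was found in 19.5% of 32851 mouse promoters of the same length. Crybb1 had TATAAA at -30, letters present in 13.6% of promoters, and Cryba4 had TATAA at -31, present in 24.9%. An E-box, CANNTG, lay at -76 in Crybb1 and was held by 72.3% of promoters. The TATAA search also counts each TATAAA. The letters GAGGAAGT (PU.1; in 3.20% of promoters) and TGANTCA (AP-1; 7.81%), and the ETS-IRF composite and MEF2 motifs, were in neither window. A match describes the letters only, and no binding was measured in these samples.

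**Figure D1:**
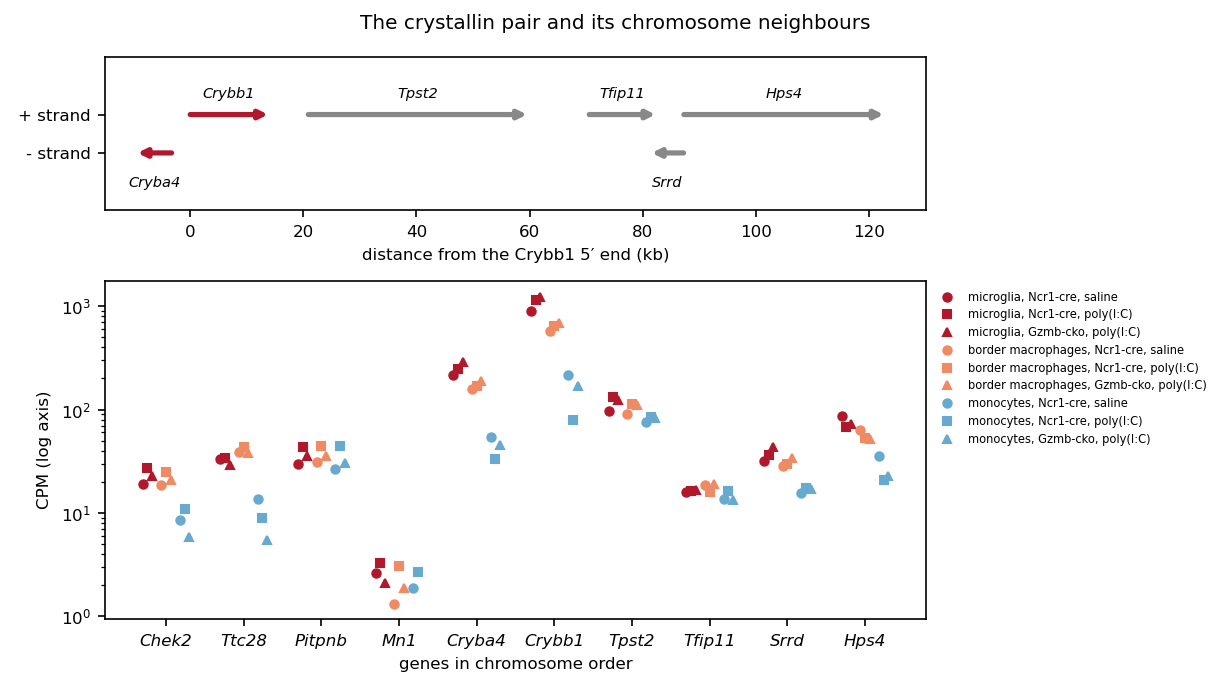
The upper panel maps Cryba4, Crybb1 and the 4 genes beyond Crybb1 by strand and distance from the Crybb1 5′ end (kb), and the lower panel gives the level (CPM, log axis) of the pair and of the 4 protein-coding genes on each side, with colours for cell classes and symbols for libraries. Crybb1 and Cryba4 stand above all 8 neighbours in microglia and border macrophages, and the 1 level of 0 (Mn1, monocytes of the Gzmb-cko library) is not drawn.

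Where 3 values follow each other below, they are those of the saline, poly(I:C) and Gzmb-cko libraries, in that order. The deposited libraries held 13820 barcodes (saline), 14887 (poly(I:C)) and 15306 (Gzmb-cko), with 89295907, 85442198 and 105574073 UMIs. After the filter 12148, 10759 and 13447 cells remained, of which 5256, 4423 and 5301 were microglia, 1093, 681 and 1873 border macrophages, and 490, 409 and 344 monocytes. Another 228, 101 and 121 cells met more than 1 gate. Barcodes shared by any pair of libraries numbered 63 to 71. Saline barcodes started at 3133 UMIs and those of the other two libraries at 500, so the saline library lacks shallow cells that the others hold. CPM is the gene's UMIs in 1000000 UMIs of the cells summed. Cells of the microglial gate within 100 genes below the gene threshold had 38.7, 1149 and 1266 CPM of Crybb1, and those within 100 genes above it 93.9, 1154 and 671, from 20 to 130 cells a group. Those of over 10 to 12% mitochondrial UMIs, just outside the limit, had 626, 1040 and 1026, and those of 8 to 10%, just inside, had 705, 1044 and 1140. All 8 microglia markers, among them P2ry12, Tmem119, Sall1, Siglech and Cx3cr1, were detected in the microglia, at a summed 9005, 11523 and 11395 CPM. Border-macrophage markers there came to 83.4, 31.8 and 67.6 CPM, with Mrc1 at 0 by the gate. The border gate was less pure: microglia markers summed to 6433, 7222 and 7200 CPM in it, beside 4232, 7635 and 6596 CPM of border markers.

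In the microglia Crybb1 was abundant and found in most cells. It gave 27802 UMIs in the saline library, 29940 in the poly(I:C) library and 43379 in the Gzmb-cko library. The levels were 898 CPM (888 to 909), 1148 (1135 to 1161) and 1234 (1223 to 1246). A Crybb1 UMI was present in 87.2%, 87.1% and 91.2% of microglia, at median depths of 4769.5, 5124 and 5760 UMIs. With every cell thinned to 2000 UMIs, the share was 71.1% (69.8 to 72.3), 75.6% (74.2 to 76.9) and 77.9% (76.7 to 79.0), and 0, 445 and 169 shallower cells were left out. The saline library was the lowest on both measures. The median microglial cell held 4, 5 and 6 Crybb1 UMIs, and the highest cell 65, 56 and 73. Cells with 10 or more made up 16.3%, 25.3% and 33.3%. The spread over cells was wide without a small group holding most of the RNA: the top 1% of cells by Crybb1 held 5.11%, 5.62% and 5.09% of its UMIs. At 2000 UMIs per cell the variance was 2.22, 2.62 and 2.51 times the mean.

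Cryba4 gave fewer UMIs and showed the same order of libraries. Its microglial totals were 6667, 6400 and 10047 UMIs, or 215 CPM (210 to 221), 245 (239 to 252) and 286 (280 to 291). A UMI was seen in 62.1%, 62.4% and 70.6% of microglia, and in 35.3%, 36.5% and 39.6% after thinning. The median cell had 1 UMI in each library and the highest 14, 17 and 24. Its variance after thinning was closer to the mean than that of Crybb1, at 1.19, 1.22 and 1.29 times. UMI totals of these genes are not per length, so the ratio of Crybb1 to Cryba4 UMIs is used only to compare classes. It was 4.17, 4.68 and 4.32 in microglia and 3.61, 3.83 and 3.70 in border macrophages, with 95% intervals that did not overlap within any library. The monocytes had 3.96, 2.41 and 3.71, and only the poly(I:C) interval (1.90 to 3.08, from 239 and 99 UMIs) failed to overlap the microglial one of its own library.

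**Figure D2:**
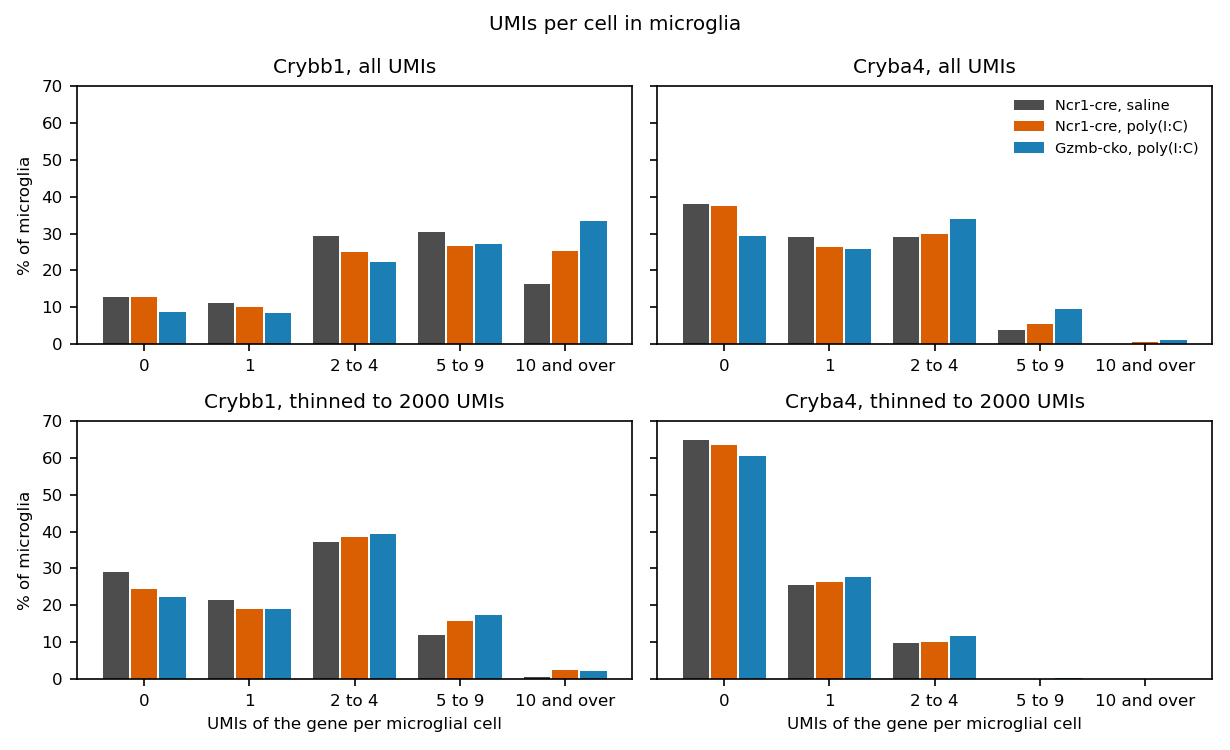
Bars give the share of microglia (percent, vertical) by the number of UMIs of the gene in a cell (horizontal) in each library, with all UMIs in the upper panels and with cells thinned to 2000 UMIs in the lower panels. With all UMIs, 16.3% (saline) to 33.3% (Gzmb-cko) of cells hold 10 or more Crybb1 UMIs, while few hold 5 or more of Cryba4.

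Across classes, microglia stood above border macrophages, and both stood above monocytes. Crybb1 reached 577, 644 and 693 CPM in border macrophages and 214, 79.5 and 167 CPM in monocytes (678, 239 and 427 UMIs). Thinned shares of cells were 55.1%, 56.7% and 57.1% in border macrophages and 20%, 7.86% and 17.0% in monocytes. That order, microglia, border macrophages, monocytes, held in each library, and the intervals of neighbouring classes did not overlap. Cryba4 had the same order, with 160, 168 and 187 CPM in border macrophages and 53.9, 32.9 and 45.1 CPM in monocytes.

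Background was read from cells of the same libraries that had neither P2ry12 nor Csf1r. Choroid plexus epithelial cells, gated by Folr1 and Clic6, gave 31.1, 23.2 and 28.4 CPM of Crybb1, with a UMI in 6.09%, 3.62% and 5.39% of cells after thinning. Their Cryba4 was 10.4, 5.91 and 9.71 CPM. Neutrophils were at a like level, with 24.5, 35.6 and 23.7 CPM of Crybb1 and 11.6, 10.1 and 11.9 CPM of Cryba4. The microglial and border-macrophage levels lay far above these in every library. Neurons, gated by Stmn2 and Tubb3, gave 120, 60.2 and 125 CPM of Crybb1 from 68, 295 and 101 cells, and erythroid cells 107, 34.0 and 41.9 CPM from 57, 35 and 11 cells. The Cryba4 share of monocytes after thinning, 5.92%, 5.90% and 6.14%, compares with 2.61%, 0.987% and 2.02% in choroid plexus cells.

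**Figure D3:**
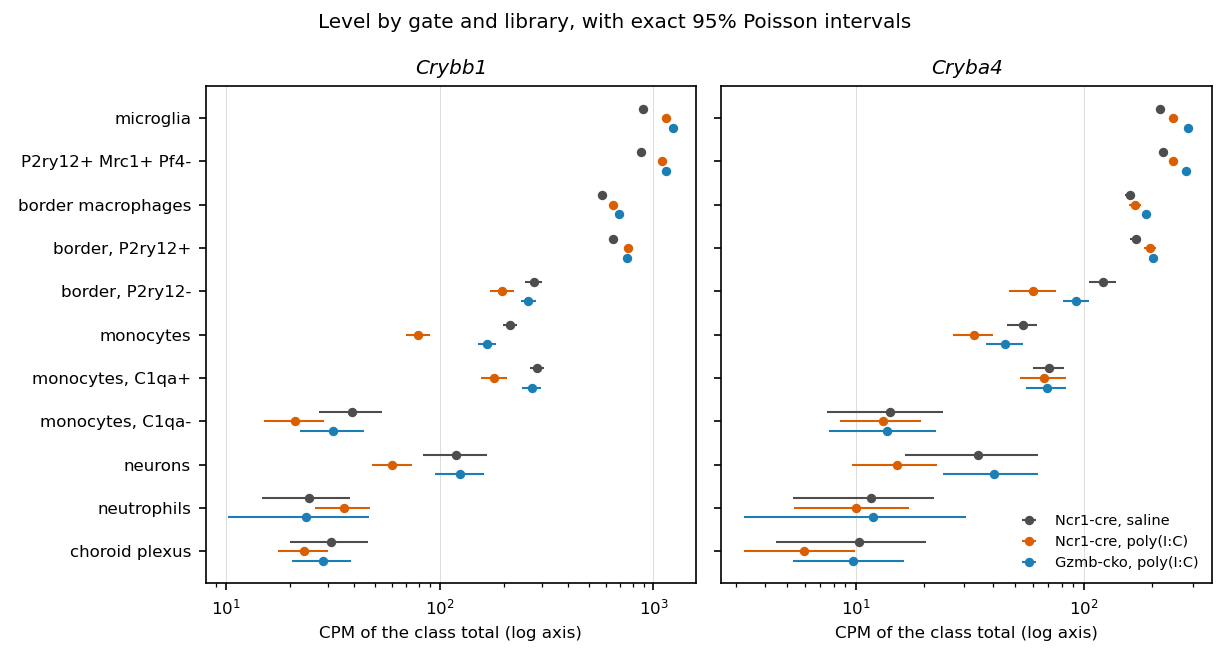
Level of Crybb1 and Cryba4 (CPM, log axis) in each cell class and library, with bars for the 95% counting interval. Microglia lie highest, border macrophages next and monocytes lower, and the same gates split by P2ry12 or C1qa separate into a high and a low group.

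Microglia exceeded border macrophages in Crybb1 by 1.56-fold (1.51 to 1.61), 1.78-fold (1.72 to 1.85) and 1.78-fold (1.75 to 1.82), and in Cryba4 by 1.35-fold (1.28 to 1.43), 1.46-fold (1.37 to 1.56) and 1.53-fold (1.47 to 1.59). A 1.5-fold excess in microglia was reached by Crybb1 in all 3 libraries and by Cryba4 in the Gzmb-cko library. Of 7924 genes at 10 CPM or more, 2.18%, 3.51% and 3.33% reached it. The members were selected on this contrast, so nothing is read from that count. Against monocytes, Crybb1 was 4.20-fold (3.89 to 4.54), 14.4-fold (12.7 to 16.5) and 7.37-fold (6.70 to 8.13) higher. For Cryba4 the excess was 3.995-fold, 7.45-fold and 6.34-fold. Over 1.5-fold higher in microglia than in monocytes were 25.2%, 27.6% and 27.8% of 7777 genes, again a contrast on which the members were selected.

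The gates for the other classes were mixed, and the levels followed the mixture. Among border-gated cells, the 847, 518 and 1549 with a P2ry12 UMI had 649, 757 and 754 CPM of Crybb1. The 246, 163 and 324 without one had 275, 196 and 260. Against the latter, the microglial excess was 3.27-fold, 5.86-fold and 4.75-fold for Crybb1 and 1.78-fold, 4.09-fold and 3.09-fold for Cryba4. Requiring in addition Lyve1 or Cd163, which mark macrophages of the brain's borders, left 98, 114 and 238 cells with 219, 139 and 237 CPM of Crybb1 and 81.2, 48.7 and 78.5 CPM of Cryba4. The lowest border-type levels thus came from cells with border markers and no P2ry12, and they stayed above those of choroid plexus cells and neurons. Cells in no class with neither Csf1r nor P2ry12 had 65.4, 225 and 275 CPM of Crybb1 and 26.8, 70.6 and 87.3 CPM of Cryba4. In both poly(I:C)-treated libraries these levels were above those of the border cells with Lyve1 or Cd163 and no P2ry12. The narrower gates were added after seeing the data.

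The monocyte gate split in the same way by C1qa, a complement gene of resident macrophages. With a C1qa UMI (290, 133 and 162 cells), Crybb1 stood at 285, 180 and 270 CPM. Without one (200, 276 and 182 cells) it was 39.0, 21.1 and 31.9 CPM, and Cryba4 was 14.1, 13.2 and 13.7 CPM. Those values are near the choroid plexus background, and the microglial excess over these cells was 23.0-fold, 54.5-fold and 38.7-fold for Crybb1. Removing cells called as doublets from the whole gate raised the mean microglia-to-monocyte ratio of the 3 libraries from 8.67 to 16.1 for Crybb1 and from 5.93 to 9.56 for Cryba4. Taking the mean of per-cell CPM raised it to 13.4 and 8.73.

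Cells carrying P2ry12 and Mrc1 but no Pf4 resembled microglia in these genes. There were 3224, 2342 and 3465 of them, of which 3141, 2315 and 3424 fell in no class, and their Crybb1 was 874, 1091 and 1147 CPM. Microglia were 1.03-fold, 1.05-fold and 1.08-fold above them in Crybb1, and 0.964-fold, 0.993-fold and 1.02-fold in Cryba4. Mrc1 detection by itself therefore went with little difference in either gene, and P2ry12 detection with a larger one.

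**Figure D4:**
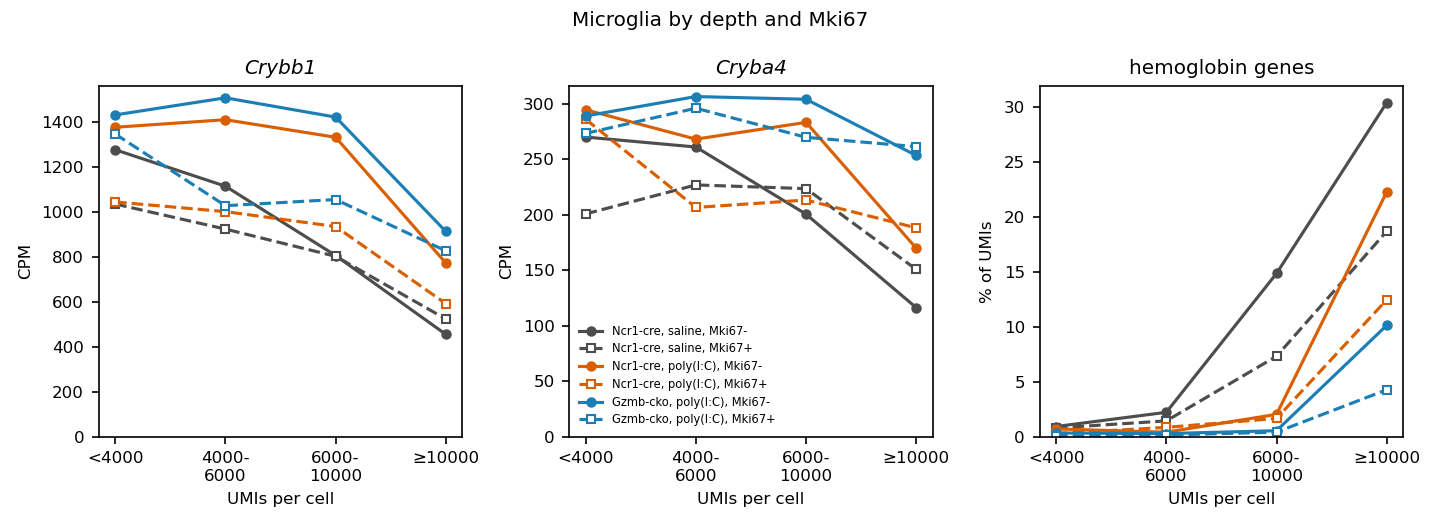
The first 2 panels give the level of Crybb1 and Cryba4 in microglia (CPM, vertical) by UMI total per cell (horizontal), and the last the share of UMIs from hemoglobin genes (percent), with solid lines for Mki67- and dashed lines for Mki67+ cells of each library. Crybb1 is lower in the deepest cells, where hemoglobin is highest. It lies lower in Mki67+ cells in the 2 shallower bins of every library (ratios of 0.682 to 0.941). The interval of the highest of these ratios (Gzmb-cko library, under 4000 UMIs), 0.842 to 1.05, includes 1.

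Both genes took a smaller share of the RNA in the deepest microglia. From cells under 4000 UMIs through 4000 to under 6000 and 6000 to under 10000 to 10000 and over, Crybb1 ran 1241, 1066, 806 and 488 CPM in the saline library. The poly(I:C) library gave 1354, 1368, 1228 and 700 CPM, and the Gzmb-cko library 1426, 1451, 1326 and 875 CPM. Most of the fall was in the last bin in the poly(I:C) and Gzmb-cko libraries, while in the saline library it ran over all bins. That last bin held 464, 456 and 749 cells. Cryba4 followed, with 260, 252, 210 and 133 CPM in the saline library, 294, 262, 265 and 177 in the poly(I:C) library and 288, 305, 295 and 257 in the Gzmb-cko library. Hemoglobin RNA, which belongs to erythroid cells, moved with depth: it took 0.905%, 2.01%, 11.9% and 24.8% of microglial UMIs over the 4 bins of the saline library, against 0.316% to 7.49% in the Gzmb-cko library from the first bin to the last. With hemoglobin left out of the totals, the deepest-to-shallowest ratio of Crybb1 changed from 0.393, 0.517 and 0.614 to 0.518, 0.628 and 0.661. That of Cryba4 changed from 0.511, 0.603 and 0.893 to 0.674, 0.733 and 0.962. The lower level in deep cells was smaller but present for Crybb1 in each library without hemoglobin. Parts played by other RNA were not tested.

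Mki67, a protein of cycling cells, was detected in 1442, 729 and 1066 microglia (27.4%, 16.5% and 20.1%), and these cells had less Crybb1. The Mki67+ cells had 765, 795 and 948 CPM of Crybb1 and the Mki67- cells 963, 1255 and 1338, ratios of 0.795 (0.774 to 0.816), 0.633 (0.614 to 0.653) and 0.709 (0.692 to 0.725). The level with 1 to 2 Mki67 UMIs was 769, 803 and 1025 CPM, and with 3 or more 763, 791 and 910 CPM. The saline and poly(I:C) levels were thus alike at few and at many Mki67 UMIs. For Cryba4 the Mki67+ cells had 199, 204 and 269 CPM against 223, 258 and 292, ratios of 0.894 (0.848 to 0.942), 0.792 (0.744 to 0.843) and 0.921 (0.880 to 0.963). A level at least 1.5-fold lower in Mki67+ cells was reached once, by Crybb1 in the poly(I:C) library, and by 1.42%, 2.67% and 2.43% of 7899 genes. In rank, 93.2%, 98.2% and 96.2% of those genes had a ratio at or above that of Crybb1, and 81.5%, 89.6% and 73.8% one at or above that of Cryba4. The median gene had a ratio of 1.05, 1.04 and 1.04.

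Mki67+ cells were also deeper, with medians of 5852, 7231 and 7664 UMIs against 4440, 4826 and 5421, so the ratio was taken within depth bins. Under 4000 UMIs, Crybb1 had ratios of 0.811, 0.758 and 0.941 (0.842 to 1.05). At 4000 to under 6000 UMIs its ratios were 0.829, 0.710 and 0.682, and at 6000 to under 10000 UMIs 0.996, 0.702 and 0.742. For Cryba4 the ratios at 6000 to under 10000 UMIs were 1.11, 0.753 and 0.887 and those at 10000 and over 1.30 (1.13 to 1.48), 1.11 (0.986 to 1.25) and 1.03 (0.955 to 1.11). For Crybb1 at 10000 UMIs and over the saline ratio was above 1, at 1.15 (1.07 to 1.23), and the others were 0.766 (0.721 to 0.814) and 0.906 (0.868 to 0.944). Hemoglobin took 18.7% of UMIs in the Mki67+ cells of that saline bin and 30.4% in the Mki67- cells. With hemoglobin left out, the saline Crybb1 ratio there was 0.985 (0.919 to 1.06). The Cryba4 ratios at that depth were then 1.11 (0.971 to 1.27), 0.984 (0.876 to 1.11) and 0.969 (0.897 to 1.05), and each interval included 1. At 2000 UMIs per cell, a Crybb1 UMI was present in 67.2%, 71.0% and 71.4% of Mki67+ and 72.5%, 76.5% and 79.6% of Mki67- microglia. The share was thus lower in every library at an equal number of UMIs counted. Thinning does not match the depth that the cells had before it, and hemoglobin counted among the 2000 UMIs.

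Among other microglial states, Crybb1 was lowest in cells rich in Spp1, the osteopontin gene of the microglia found along developing axon tracts. Cells with at least 5 Spp1 UMIs numbered 301, 141 and 422 and had 571, 666 and 778 CPM of Crybb1, against 927, 1176 and 1301 in the remaining microglia. The ratios, 0.616, 0.566 and 0.598, were below 1/1.5 in all 3 libraries, as were those of 7.12%, 12.1% and 8.07% of 7697 genes. Cryba4 had 174, 215 and 220 CPM against 219, 247 and 295, ratios of 0.796, 0.871 and 0.746. Spp1-rich cells were deeper (medians of 7364, 9216 and 9817 UMIs against 4662, 5044 and 5573). Within 6000 to under 10000 UMIs the ratios were 0.731, 0.681 and 0.631 for Crybb1 and 0.756, 0.819 and 0.775 for Cryba4. At 10000 UMIs and over they were 0.891, 0.801 and 0.727 for Crybb1 and 1.08 (0.904 to 1.29), 1.23 (1.05 to 1.43) and 0.773 (0.706 to 0.845) for Cryba4, and the saline Cryba4 ratio at 4000 to under 6000 UMIs was 1.06 (0.866 to 1.28). Crybb1 was thus lower in Spp1-rich cells of both deeper bins in each library, while Cryba4 was not lower at every depth.

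Microglia with at least 5 UMIs of Ccl4, a chemokine gene, differed little over all depths. Their Crybb1 ratios to the remaining microglia were 0.925, 0.970 and 0.993 and their Cryba4 ratios 0.878, 1.12 and 1.02, from 201, 299 and 325 cells. Neither gene passed 1.5-fold in either direction, which 4.53%, 3.53% and 2.96% of 7837 genes did upward and 5.03%, 2.19% and 3.56% downward. The Ccl4-rich cells were deeper, with medians of 5883, 6010 and 7518 UMIs against 4736, 5037 and 5666. At 10000 UMIs and over, in 34, 62 and 93 such cells, their Crybb1 ratios were 1.25 (1.10 to 1.42), 1.56 (1.45 to 1.68) and 1.32 (1.24 to 1.40), and their Cryba4 ratios 1.10, 1.54 (1.32 to 1.79) and 1.10. In the deepest cells Crybb1 was thus higher with Ccl4 in each library. Hemoglobin took 24.8%, 18.2% and 7.49% of microglial UMIs in that bin, and the ratios of microglial states were not recomputed without it. Microglia with both Ifit3 and Isg15, genes induced by interferon, were few (120, 88 and 75 cells). There Crybb1 had ratios of 0.936, 0.919 and 0.807 and Cryba4 0.638, 0.798 and 0.682. Only the saline Cryba4 ratio was below 1/1.5, a mark passed by 14.8%, 19% and 17.3% of 7767 genes, so nothing about Cryba4 is read from that 1 call. In the deepest bin, from 15, 13 and 21 such cells, the ratios were 1.73, 1.23 and 0.860 for Crybb1 and 0.627, 1.20 and 0.669 for Cryba4.

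Between libraries, microglial Crybb1 and Cryba4 were higher in both poly(I:C)-treated libraries than in the saline library. For Crybb1 the poly(I:C) library exceeded saline by 1.28-fold (1.26 to 1.30), the Gzmb-cko library exceeded the poly(I:C) library by 1.07-fold (1.06 to 1.09) and exceeded saline by 1.37-fold (1.35 to 1.395). The Cryba4 ratios were 1.14 (1.10 to 1.18), 1.16 (1.13 to 1.20) and 1.33 (1.29 to 1.37). These 3 comparisons share libraries with one another. None passed 1.5-fold for either gene, a mark that 3.89% of 7843 genes passed upward and 1.44% downward from saline to poly(I:C). From the poly(I:C) to the Gzmb-cko library, 0.293% were past it upward and 2.19% downward, and from saline to Gzmb-cko 1.24% and 2.15%. The median gene had ratios of 1.13, 0.977 and 1.10 (log2 0.17, -0.03 and 0.13). The Cryba4 ratio of poly(I:C) to saline was thus about that of the median gene, and the other ratios of both genes lay above it. Ranked among all genes tested, 20.8%, 23.9% and 3.90% had a ratio at or above that of Crybb1 and 46.7%, 9.54% and 6.68% one at or above that of Cryba4.

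Those ratios moved with what filled the rest of each library. Hemoglobin took 9.605%, 5.54% and 2.48% of microglial UMIs, and the summed levels of 7 neutrophil markers were 4449, 2492 and 1417 CPM and of 5 choroid plexus markers 11177, 10062 and 3988 CPM. With hemoglobin left out of the total, Crybb1 was 994, 1215 and 1265 CPM and its ratios, in the same order, 1.22, 1.04 and 1.27. Cryba4 was 238, 260 and 293 CPM, with ratios of 1.09, 1.13 and 1.23. With edgeR's TMM scaling the Crybb1 ratios were 1.13, 1.14 and 1.29 and those of Cryba4 1.01, 1.23 and 1.24. Under these settings Crybb1 kept the order saline, poly(I:C), Gzmb-cko, and the Cryba4 difference between poly(I:C) and saline nearly vanished under TMM. TMM also changed the background split: of genes past 1.5-fold, 73.0% were higher in poly(I:C) than saline by CPM and 26.4% under TMM. From the poly(I:C) to the Gzmb-cko library those shares were 11.8% and 24.7%, and from saline to Gzmb-cko 36.5% and 20.6%. With only cells of at least 3133 UMIs, the saline floor, kept in every library, the Crybb1 ratios were 1.26, 1.09 and 1.37. Those of Cryba4 were then 1.10, 1.20 and 1.32. Parts played by the remaining foreign RNA were not tested.

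Within microglia, Cryba4 RNA was found more often in cells that also held Crybb1 RNA. At 2000 UMIs per cell, Cryba4 was detected in 39.0%, 39.9% and 43.0% of cells with a Crybb1 UMI and in 26.2%, 26.0% and 27.7% of cells without one. The odds ratios were 1.80, 1.89 and 1.97. Hemoglobin and other foreign RNA counted among the 2000 UMIs, and their part in this co-detection was not tested. Mean Crybb1 UMIs per cell rose from 1.82, 2.33 and 2.39 with no Cryba4 UMI to 2.39, 2.77 and 3.01 with 1 and 2.47, 2.88 and 3.09 with 2. At 3 or more, reached by 113, 103 and 186 cells, the mean was 2.42, 3.505 and 2.91. The step from 0 to 1 was the largest in the saline and Gzmb-cko libraries, and that from 2 to 3 or more in the poly(I:C) library. Pearson's r of log(1 + UMIs) was 0.138, 0.127 and 0.131, a weak relation over 5256, 3978 and 5132 cells in sparse counts.

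Fcrls, Sparc and Siglech, all used as microglial markers, and the complement genes C1qa, C1qb and C1qc were among the 12 genes most like Crybb1 across microglia. Likeness was Pearson's r of log(1 + UMIs) over the same thinned cells, among 4489 genes, ranked by the smallest r of the 3 libraries. Cells of 1 library share its free RNA, and r carries no test here. Leading were Cst3 (cystatin C, a secreted protease inhibitor; r of 0.34, 0.33 and 0.30), Itm2b (a membrane protein; 0.33, 0.30 and 0.28) and Fcrls (an Fc receptor-like gene of microglia; 0.31, 0.28 and 0.26). Sparc, C1qc, C1qb, Ltc4s (leukotriene C4 synthase), Sepp1 (selenoprotein P), Siglech, Ctsl (cathepsin L) and C1qa were also among the 12. Only 8 genes had a smallest r of at least 0.2 and 62 of at least 0.1. The mean r of the 3 libraries had a median of 0.00875 over all genes. At the other end were Vim, the gene of the intermediate filament vimentin (r of -0.18, -0.20 and -0.17), Lgals3 and Lgals1 (galectins), Anxa2, Srgn and Fxyd5. Hemoglobin genes were near that end too, with Hbb-bt at rank 4486 (r of -0.13, -0.16 and -0.09). The part of hemoglobin in the ranking was not tested.

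Cryba4 had no gene with a smallest r of 0.2, so its ranking is no more than a list of names. Tmsb4x, which binds actin, came first (r of 0.14, 0.13 and 0.13), followed by the cathepsin genes Ctsd and Ctsb, Itm2b and then Crybb1. The remaining places of its 12 were taken by Sepp1, Tyrobp, Lgmn, C1qb, Ctsl, Fcrls and Trem2. Of the 12 nearest genes, 5 were the same for both members. The 6 lowest were Lgals3, Vim, Hba-a1, Hba-a2, Srgn and Hbb-bt, 3 of them shared with Crybb1, and 3 of them hemoglobin genes. Cryba4 was only rank 37 among the genes like Crybb1.

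**Figure D5:**
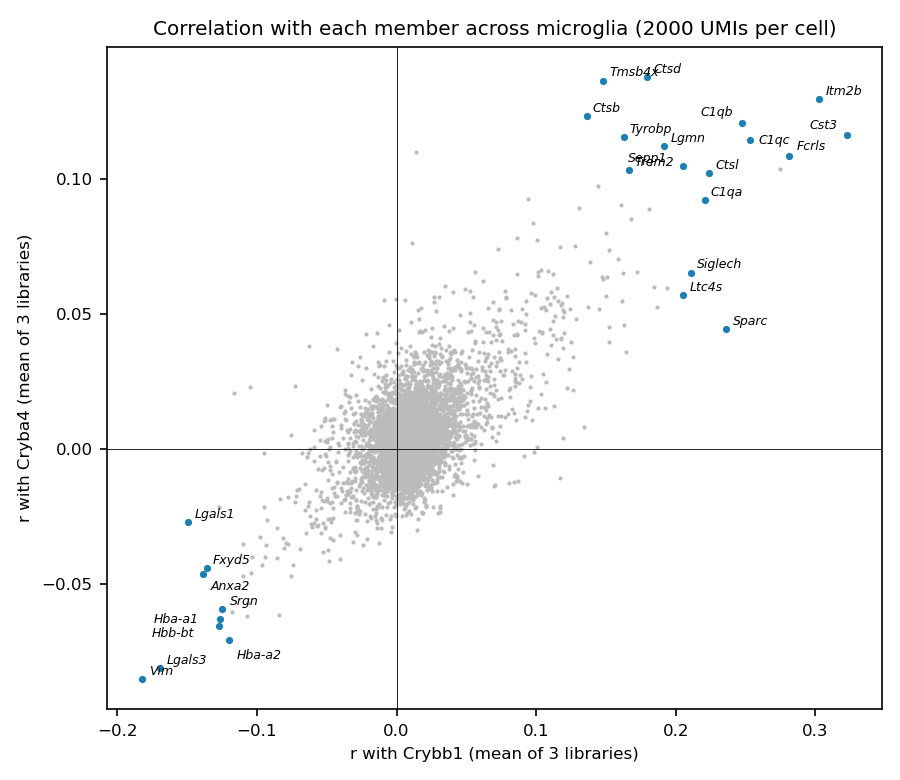
Each point is a gene: its mean r over the 3 libraries with Crybb1 (horizontal) and with Cryba4 (vertical) across microglia at 2000 UMIs per cell, with genes of the 12 highest and 6 lowest of either member named. Itm2b, Cst3, Fcrls and C1q genes lie at the upper right, and Vim, Lgals3 and hemoglobin genes at the lower left.

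Across classes the r of the pair was higher, though r over summed groups and r over sparse single cells are not like measures. Over 19 groups of class and library with at least 50 cells, the r of log2(CPM + 1) between Crybb1 and Cryba4 was 0.992. Each was the other's nearest of 7449 genes, all with at least 10 CPM in microglia in every library. Both members were chosen on their pattern over classes, so a high r was likely from the start and nothing is read from it. Next for Crybb1 came Blnk, a signalling adaptor (r of 0.981), Olfml3 (0.979) and Rasgrp3 (0.975), then Abhd12, Syngr1, C1qc, C1qb, Gpr34 and Rgs7bp. For Cryba4, Blnk had 0.987, Olfml3 0.981 and Rasgrp3 0.978. The groups were 7 cell classes by library, those of 1 library share its free RNA, and P2ry12, used for gating, was at rank 92 and 79.

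Of the 23 crystallin genes listed, the other members were scarce or absent in microglia. Cryaa, Cryba2, Crybb2, Crygb, Crygc, Crygd, Crygf and Crygs had no UMI in any library, which limits each to 0.0969, 0.115 and 0.0854 CPM. Among the lens crystallins with any UMI, Crybb3 had 23, 7 and 15, Crygn 15, 14 and 10 and Cryba1 5, 4 and 3. Cryab, a small heat shock protein found in many tissues, was at 14.0, 10.0 and 14.0 CPM in microglia and at 249, 245 and 488 CPM in choroid plexus cells. The taxon-restricted crystallin relatives Cryl1 (35.0, 39.7 and 46.7 CPM), Cryzl1 (18.1, 24.2 and 22.2) and Cryz (14.6, 15.8 and 17.2), which encode or resemble metabolic enzymes, were low. Crybg3 had 11.4, 9.97 and 10.7 CPM, Crym 14, 6 and 0 UMIs, and Crybg1, at 38, 33 and 29 microglial UMIs, was instead found in monocytes, at 30.3, 39.6 and 30.2 CPM. Cryga had 0, 2 and 7 UMIs, Crybg2 1 in each library and Cryge 1 in the Gzmb-cko library. Among genes named Cryba or Crybb, none but Crybb1 and Cryba4 was above 1 CPM. Of the 7 family genes at 10 CPM or more, none passed 1.5-fold between any pair of libraries.

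Lens genes other than crystallins were scarce. The lens markers Lim2, Gja3 and Foxe3 were at 0 in the microglia of every library, and Mip, Bfsp1 and Bfsp2 together reached 2.16, 1.92 and 2.39 CPM. Prox1, a lens and lymphatic regulator, was the one gene of an 11-gene lens list at 10 CPM or more, with 14.2, 17.7 and 14.6 CPM. Pax6, the master regulator of eye development, had 71, 26 and 31 UMIs.

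Among regulators, Maf, which activates crystallin genes in the lens, was present at 872, 762 and 823 CPM in microglia and at 1324, 1286 and 1374 CPM in border macrophages. Its class order was thus the reverse of that of Crybb1 between those classes. Within microglia Maf had rank 28 of 4489 for likeness to Crybb1, with r of 0.21, 0.15 and 0.13, and rank 306 for Cryba4. Like Crybb1 it was lower in Mki67+ cells, at 769, 606 and 724 CPM against 923, 810 and 858. Spi1, which encodes PU.1, was at 360, 423 and 422 CPM, and Sall1, a microglial identity factor, at 147, 178 and 170. Of the 13 regulators at 10 CPM or more, 11 were higher and 2 lower in poly(I:C) than in saline, with a median ratio of 1.18, beside 1.13 over all genes. Past 1.5-fold upward was 1 of them (Bhlhe41, 64.0 CPM in saline and 99.4 CPM in poly(I:C)), beside 3.89% of all genes, so that nothing is read from the list.

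The neighbours on the chromosome shared the pattern in part. Tpst2, Hps4, Srrd and, narrowly, Chek2 had the order microglia, border macrophages, monocytes in each library. Ttc28, Pitpnb, Mn1 and Tfip11 did not have it in every library. Tpst2, next to Crybb1 and coding for a tyrosine sulphotransferase, was at 97.8, 131 and 123 CPM in microglia, 90.9, 113 and 111 in border macrophages and 76.3, 85.5 and 82.3 in monocytes. Hps4, a gene of lysosome-related organelles, was at 87.0, 67.8 and 72.6 CPM in microglia and 62.9, 53.0 and 51.9 in border macrophages. In monocytes it was at 35.6, 21.0 and 22.7. Mn1, the nearest gene beyond Cryba4, was at 2.62, 3.30 and 2.11 CPM, and Pitpnb at 29.4, 43.5 and 35.2. Chek2, Ttc28, Tfip11 and Srrd lay between 15.9 and 43.3 CPM in microglia.

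The stage of the cells was read from the lists of the developmental scheme in which Crybb1 marks pre-microglia. Its companions there, the growth factor gene Csf1 and the chemokine receptor gene Cxcr2, were at 86.7, 87.1 and 121 CPM and at 21.8, 29.4 and 20.4 CPM. Early-stage genes gave 923, 873 and 830 CPM for Lyz2 (lysozyme), 76.1, 74.8 and 73.3 for Dab2 (an endocytic adaptor), 46.6, 42.9 and 47.3 for Mcm5 (a replication helicase subunit) and 35.4, 7.82 and 41.3 for Pf4, and the adult-stage genes Cd14 and Mef2a gave 56.8, 81.2 and 83.2 and 204, 280 and 229. Lyz2 had rank 4470 of 4489 for likeness to Crybb1, with r of -0.10, -0.12 and -0.10, and Dab2 rank 4180. Mcm5 was at rank 1765, ahead of the companion Csf1 at rank 3097. Mef2a and Cd14 were at ranks 1777 and 3190, so the ranks did not follow the stages. Of 16 homeostatic genes, 14, 5 and 15 were higher in the poly(I:C) over the saline, the Gzmb-cko over the poly(I:C) and the Gzmb-cko over the saline library. Their median ratios were 1.33, 0.966 and 1.24, beside 1.13, 0.977 and 1.10 over all genes. Past 1.5-fold upward were 2, 0 and 1 of them, beside 3.89%, 0.293% and 1.24% of all genes. These lists were drawn up with earlier results of the same libraries known, and they give no independent evidence of a direction.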

How the data were processed

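CD11b-enriched cells of fetal mouse brain were profiled with 10x Genomics 3′ chemistry, 1 library per group. Values deposited by the authors are UMI counts for each gene and barcode, not normalised. Cell Ranger 3.0.1 and STAR with build mm10 are named, per the submitters' processing notes, whereas Cell Ranger 5.0.0 wrote the matrices, per the file headers.

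UMIs were summed per class and library and divided by the summed total (CPM). Intervals at 95% are exact Poisson for levels, Clopper-Pearson for shares and conditional binomial for ratios, all for counting error only (PCR copies are removed by the UMIs, but cells are no replicates). A count of 0 was limited at 3 counts. Shares and correlations used cells thinned to 2000 UMIs. Genes at a mean of 10 CPM or more were compared past 1.5-fold as background, with no test, since each group is 1 library. Doublets were called with Scrublet in scanpy 1.11.5 (387, 281 and 626 cells, or 3.19%, 2.61% and 4.66%) and kept, and their removal is an alternative. The rates expected from the barcode numbers were 11.1%, 11.9% and 12.2%, so fewer were called than expected and doublets may remain after removal. Scaling alternatives used edgeR 4.0.16 (TMM) and DESeq2 1.42.0 (size factors) in R 4.3.3, and other values numpy 2.4.6 and scipy 1.17.1. Coexpression ranking was tested on simulated data. Gene positions are GENCODE M21's and promoters RefSeq's (both members matched).

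The members, gates and gene lists were chosen with earlier results of these data known. Genes named are the members, crystallins with at least 10 microglial UMIs, the 4 coding neighbours on each side, the 12 most and 6 least alike genes across microglia, the 10 most alike across classes, and up to 4 examples of each other list. Further crystallins, lens markers and stage genes are named beyond that rule, after their values were seen, to account for the lists. A few genes that the rule or lists would name are not reported here.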

Additional observations from a re-analysis of the deposited data

Results flagged for a closer look

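Libraries lay on opposite sides of 1 in some comparisons within depth bins. Among microglia of 10000 UMIs and over, the Crybb1 ratio of Mki67+ to Mki67- cells was 1.15 (1.07 to 1.23) in the saline library, 0.766 (0.721 to 0.814) in the poly(I:C) library and 0.906 (0.868 to 0.944) in the Gzmb-cko library. Among those of 6000 to under 10000 UMIs, the Cryba4 ratio was 1.11 (1.02 to 1.22), 0.753 (0.680 to 0.832) and 0.887 (0.823 to 0.956), whereas at 10000 UMIs and over it was above 1 in each library (1.30, 1.11 and 1.03). The difference between libraries was not tested, since each group is 1 library. With hemoglobin left out of the totals, the saline Crybb1 ratio became 0.985 (0.919 to 1.06). The saline Cryba4 ratio at 6000 to under 10000 UMIs became 1.02 (0.934 to 1.12). Both intervals then included 1. At 10000 UMIs and over the Cryba4 ratios became 1.11 (0.971 to 1.27), 0.984 (0.876 to 1.11) and 0.969 (0.897 to 1.05), and each interval included 1.

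Microglia rich in Ccl4 had a Cryba4 ratio to the remaining microglia of 0.878 (0.773 to 0.993) in the saline library and 1.12 (1.03 to 1.22) in the poly(I:C) library, on opposite sides of 1. Crybb1 in Ccl4-rich cells of 6000 to under 10000 UMIs had ratios of 1.11 (1.003 to 1.22) in the saline and 0.897 (0.831 to 0.966) in the poly(I:C) library. Cryba4 in Spp1-rich cells of 10000 UMIs and over had 1.23 (1.05 to 1.43) in the poly(I:C) and 0.773 (0.706 to 0.845) in the Gzmb-cko library. Crybb1 in cells of that depth with both Ifit3 and Isg15 had 1.73 (1.47 to 2.02) in the saline, 1.23 (1.04 to 1.44) in the poly(I:C) and 0.860 (0.746 to 0.987) in the Gzmb-cko library, from 15, 13 and 21 cells. These differences were not tested either.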

How the results depend on the processing

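No mean ratio over the 3 libraries and no ratio between libraries changed its side of 1 under the alternatives. Within depth bins, some ratios of Mki67+ to Mki67- microglia at 10000 UMIs and over did so without hemoglobin. That of Crybb1 in the saline library went from 1.15 to 0.985. Those of Cryba4 went from 1.11 to 0.984 in the poly(I:C) library and from 1.03 to 0.969 in the Gzmb-cko library. Of the recomputed values, 57 moved beyond their margin (the SD over libraries for a mean, the counting interval for a ratio between libraries, 1.5 times for a count) and 73 stayed within it, a wide margin for the monocyte ratios. No paired analysis was possible because each group is 1 library, and for the same reason no replicate could be left out. Mean Mki67 ratios over the 3 libraries were 0.712 (Crybb1) and 0.869 (Cryba4) and ranged from 0.697 to 0.725 and from 0.840 to 0.876.

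Class ratios depended on the gates. The mean ratio of microglia to border macrophages moved from 1.71 to 4.62 (Crybb1) and from 1.45 to 2.99 (Cryba4) without P2ry12 in the border gate, and to 5.86 and 3.78 with Lyve1 or Cd163 required as well. That to monocytes moved from 8.67 to 16.1 and from 5.93 to 9.56 with called doublets removed, to 38.7 and 18.3 without C1qa, and to 13.4 and 8.73 as the mean of per-cell CPM.

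Ratios between libraries depended on the denominator. Crybb1 in poly(I:C) over saline, 1.28, became 1.26 with the saline UMI floor, 1.25 with at least 2 P2ry12 UMIs, 1.18 with the reduced denominator (mitochondrial, ribosomal protein and hemoglobin genes left out), 1.24 thinned, 1.22 without hemoglobin and 1.13 under both TMM and median-of-ratios scaling. Gzmb-cko over poly(I:C), 1.07, became 1.10 with the stricter cell filter (1000 genes, 5% mitochondrial), 1.05 with 2 P2ry12 UMIs, 1.04 per cell, 1.05 thinned, 1.04 without hemoglobin and 1.14 under both scalings. Gzmb-cko over saline, 1.37, became 1.42 with the stricter filter, 1.31 with 2 P2ry12 UMIs, 1.26 with the reduced denominator, 1.31 per cell, 1.30 thinned, 1.27 without hemoglobin and 1.29 under both scalings. Cryba4 in poly(I:C) over saline, 1.14, became 1.10 with the stricter filter, 1.05 with the reduced denominator, 1.05 thinned, 1.09 without hemoglobin, 1.01 under TMM and 1.004 by median of ratios. Its Gzmb-cko over poly(I:C) ratio, 1.16, became 1.22 with the stricter filter, 1.07 per cell, 1.13 without hemoglobin, 1.23 under TMM and 1.24 by median of ratios. Gzmb-cko over saline, 1.33, became 1.28 with 2 P2ry12 UMIs, 1.21 with the reduced denominator, 1.24 per cell, 1.18 thinned, 1.23 without hemoglobin and 1.24 under both scalings.

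Genes past 1.5-fold numbered 418, 195 and 266 (in the order of the report), 5852, 5712 and 5677 with no filter on low counts and 143, 46 and 84 at 50 CPM or more. Of the 12 genes most like Cryba4, 6 were shared with the ranking at 1000 UMIs per cell and 7 with that in microglia without Mki67 UMIs. The causes were not tested. Added after seeing the data were the narrower gates, thinning of library and Mki67 ratios, and the totals without hemoglobin. Shallow depth limits Cryba4, at a median of 1 UMI per cell.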

Other observations

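Many cells that met no gate or exclusion still carried both genes. The 4710, 4126 and 5281 kept cells outside the gates had 687, 839 and 991 CPM of Crybb1 and 182, 198 and 251 CPM of Cryba4, and they held 38.2%, 37.2% and 38.5% of all Crybb1 UMIs in kept cells, against 49.6%, 54.6% and 45.9% in microglia. Most were cells with P2ry12 and Mrc1 but no Pf4 (3141, 2315 and 3424). Cells with Csf1r but no P2ry12 (1262, 968 and 964) had 291, 309 and 452 CPM of Crybb1 and 95.6, 102 and 158 CPM of Cryba4. Cells with neither, 307, 843 and 893 in number, had 65.4, 225 and 275 CPM of Crybb1 and 26.8, 70.6 and 87.3 CPM of Cryba4.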
